A study of Mus musculus with 10 samples.

Results

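The genes described are 10 members of the hypoxia pathway, namely the HIF alpha subunits Hif1a and Epas1, the HIF prolyl hydroxylases Egln1 and Egln3, and the target genes Vegfa, Bnip3, Ankrd37, Ndrg1, Adm and Car9. They were chosen by name, with earlier results of these data known. Each was found by its Ensembl identifier among the 40620 genes of the RNA-seq data. RNA was sequenced from MC3T3-E1 cells, a clonal pre-osteoblast line from mouse calvaria, at 5 stages of osteogenic differentiation, each with a replicate A and a replicate B (2 libraries). Subconfluent and confluent (day 0) cells were in growth medium, αMEM with 10% serum. Cells at 24 h, 14 d and 21 d were in the same medium with β-glycerophosphate (10 mM) and ascorbic acid (50 µg/ml) added. All groups were the same unmodified line, and the labels name no change in oxygen supply at any stage. From confluent cells to 24 h, medium and time in culture changed together. From 24 h to 21 d the medium was the same and time in culture differed. Comparisons of 14 d or 21 d with cells in growth medium differ in both. The labels give no cell density after confluence, so its part cannot be told apart from that of time. Long cultures in growth medium were not analysed here.

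HIF is a transcription factor made of an alpha and a beta subunit. In well-oxygenated cells, prolyl hydroxylases use oxygen to mark the alpha subunit, which the VHL ligase then sends for degradation, so that HIF activity is set largely at the level of the protein and not of its mRNA. When the alpha subunit is not hydroxylated it pairs with the beta subunit (Arnt) and binds short DNA motifs near genes of glycolysis, blood vessel growth, mitophagy and pH control. In bone, osteoblasts that carry active HIF are known to express Vegfa, which couples bone formation to vessel growth.

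The core of the motif that HIF binds is ACGTG or GCGTG. Both were searched for on both strands in the 250 bases before the annotated start of transcription, in RefSeq promoter windows on GRCm38.p6. A window was found for 8 of the 10 genes, and for Vegfa there were 2. Epas1 and Ndrg1 had none. At least 1 match was present for 8 of these 8 genes, in 8 of 9 windows. For Vegfa it was in the window at an internal start alone, which lies mostly in an annotated exon. Of all 32851 windows of the same length 38.6% held a match, 16.6% held ACGTG and 28.2% held GCGTG. Stretches are shown for Car9 and Ankrd37, which changed by the largest factors, for Bnip3, whose window held the most matches, and for Vegfa, which was called at a later stage than the other targets. Each is given 5′ to 3′ on the strand of the gene with the matches in capitals. A match on the opposite strand reads CACGT or CACGC, and CACGTG holds 1 on each strand.
Car9, chr4:43506996-43507025, plus strand: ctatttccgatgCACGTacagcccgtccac
Ankrd37, chr8:45999851-46000100, minus strand: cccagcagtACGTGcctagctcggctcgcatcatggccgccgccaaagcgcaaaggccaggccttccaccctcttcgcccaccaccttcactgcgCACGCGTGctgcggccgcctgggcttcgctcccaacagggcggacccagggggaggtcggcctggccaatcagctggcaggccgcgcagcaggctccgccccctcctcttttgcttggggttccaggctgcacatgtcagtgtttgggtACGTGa
Bnip3, chr7:138909507-138909756, minus strand: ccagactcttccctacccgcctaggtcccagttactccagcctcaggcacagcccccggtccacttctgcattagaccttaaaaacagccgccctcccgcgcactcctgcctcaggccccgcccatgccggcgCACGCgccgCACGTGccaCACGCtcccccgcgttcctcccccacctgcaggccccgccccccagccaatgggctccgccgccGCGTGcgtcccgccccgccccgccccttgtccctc
Vegfa, chr17:46032378-46032627, minus strand: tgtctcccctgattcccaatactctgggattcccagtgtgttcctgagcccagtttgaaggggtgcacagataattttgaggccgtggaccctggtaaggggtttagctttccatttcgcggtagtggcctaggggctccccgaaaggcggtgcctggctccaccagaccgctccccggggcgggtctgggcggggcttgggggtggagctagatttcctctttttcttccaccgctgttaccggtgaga
For Car9 only the 30 bases before the RefSeq start are shown, since GENCODE places the start 60 bases further upstream. The Ankrd37 and Hif1a windows lie inside the genes as GENCODE draws them, with 17 and 0 bases in an annotated exon. The Bnip3 window has 13 such bases. The Egln1 window has 70, including its ACGTG match, 68 to 64 bases before the RefSeq start. The Car9 match, 18 to 14 bases before the RefSeq start of that gene, also lies in an annotated exon. Bnip3 held 5 matches, a number reached by 1.01% of all windows. Ankrd37 held 4, and 3 or more were in 6.58% of windows. Car9 held 1. The Vegfa window at the 5′ end of the gene held 0, and the window at an internal start, with 218 of its 250 bases in an annotated exon, held 2. Among 25 further hypoxia targets (listed below), 20 had a window and 18 of these a match. These matches describe letters in the sequence, and binding was not measured. Bases outside the windows were not searched, so a window with 0 matches does not show that a gene lacks a site.

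Each library held between 44736156 and 162939333 counts on genes. Levels are the RPKM values deposited by the authors, reads scaled by gene length and by sequencing depth, which can be compared between genes. Log2 changes are log2 fold changes fitted to the counts of all 10 libraries with edgeR's quasi-likelihood test, with p-values adjusted (Benjamini-Hochberg) over 20808 genes. SE is the standard error of such a change, worked back as its absolute value divided by the square root of the test's F statistic. It is a rough guide for changes near 0 or on few counts. A gene passed the test at an adjusted p under 0.05, and was called when it also changed by more than 2-fold. The first 3 stages carried one pair of index sequences in their libraries and the last 2 stages a second pair, so that stage and library set cannot be told apart wherever early stages are set beside late ones. Comparisons free of this are those of confluent with subconfluent cells, of 24 h with confluent cells and of 21 d with 14 d. The labels do not say whether A and B were separate cultures, so the p-values measure the spread between these libraries, which may be technical. The 24 h replicates stood apart. Over 16121 genes with at least 10 counts in every library, the SD of the log2 ratio of A to B was 0.69 at 24 h and 0.29 to 0.33 at the other stages. The osteoblast markers Runx2, Sp7, Alpl, Col1a1, Bglap, Ibsp and Dmp1 summed to between 4890 and 7670 RPKM in the libraries of the first 3 stages and to between 8510 and 15900 RPKM in the last 2. Of 6 endothelial markers, 4 had at most 3 counts in every library, and the sum of all 6 was 0.0122 to 0.0743 RPKM in the first 3 stages and 0.0362 to 0.103 RPKM in the last 2. Tek, a receptor of endothelial cells, was called higher in 21 d versus subconfluent cells (log2 change 3.73, adjusted p = 0.019), on at most 15 counts per library (at most 0.0548 RPKM). Of 5 macrophage markers, Ptprc was at 0 counts in every library and Adgre1 had at most 1 count, and the sum was 13.2 to 19.2 RPKM in the first 3 stages and 17.2 to 18.5 RPKM in the last 2. These 5 were led by Lyz2 and Csf1r, and Lyz2 passed as higher in 21 d versus subconfluent cells (log2 change 0.59, SE 0.16, adjusted p = 0.017). The part of these markers in the results below was not tested. In bulk RNA, more cells of a type and more RNA per cell cannot be told apart.

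Over the course, Hif1a mRNA fell and Epas1 mRNA stayed low, while both hydroxylases and all 6 targets were higher at the end of the course than in subconfluent cells. In 21 d versus subconfluent cells 8 of the 10 genes were called, each of them higher, where 27.6% of all genes were called and 16.3% were called higher. Hif1a passed the test as lower, by less than 2-fold, and Epas1 did not pass, where 50.7% of all genes passed. The median log2 fold change of the 10 genes was 2.29, and that of all genes was 0.04. At 14 d versus confluent cells 6 of the 10 were called, again all higher, against 13% of all genes, or 9.15% called higher, and with Egln1 and Vegfa, which rose by less than 2-fold, 8 passed, against 32.1% of all genes. There the median was 2.15, and 0.03 over all genes. The F test over the 5 stages was passed by 9 of the 10, all but Epas1 (adjusted p = 0.061), and by 48.9% of all genes. Since the 10 genes were chosen with earlier results of these data known, these shares and medians are a description.

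**Figure D1:**
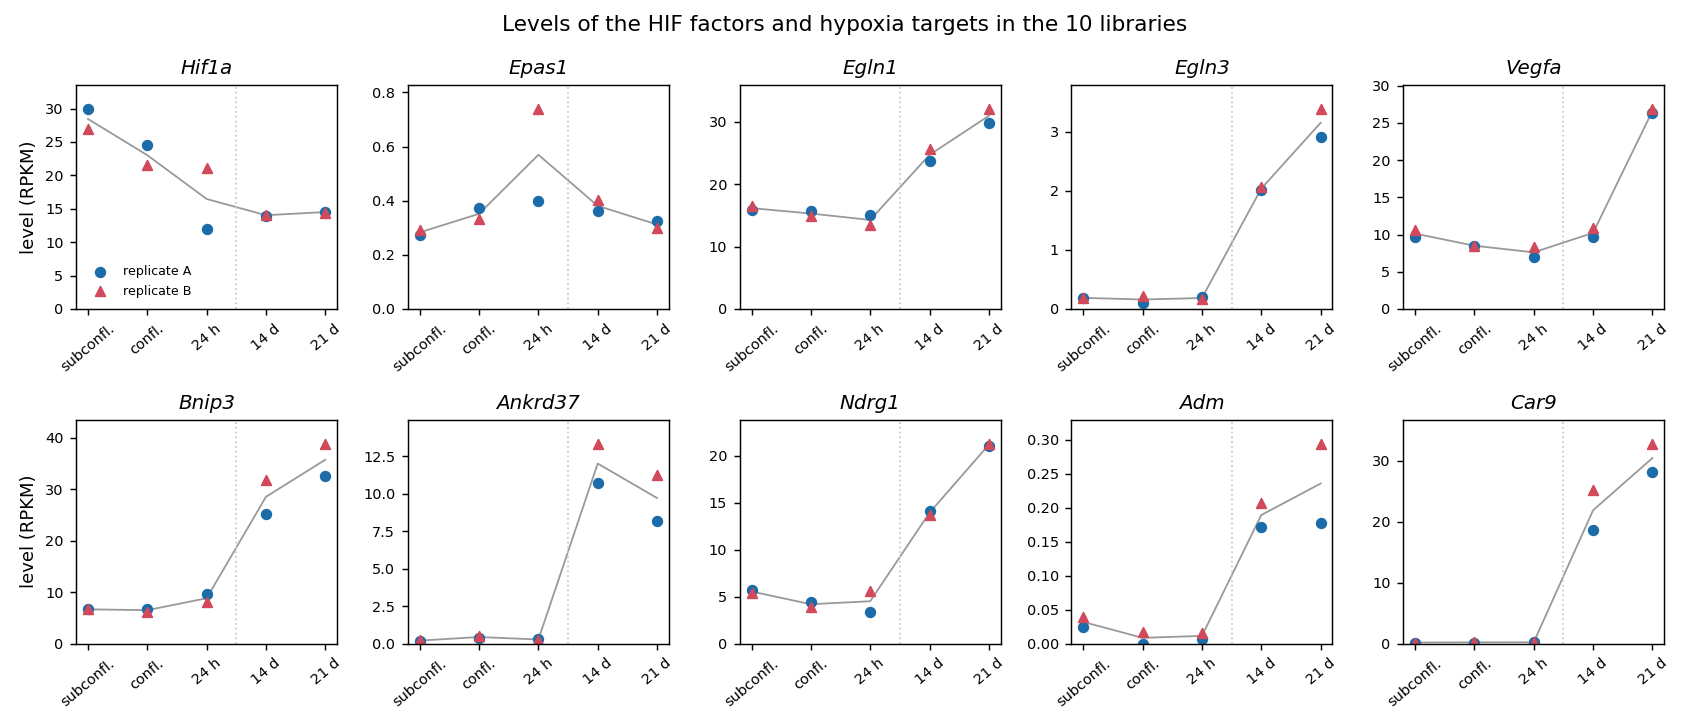
Level of each gene in RPKM (linear axes from 0, a scale for each panel) in the 10 libraries, by stage. Circles are replicate A, triangles replicate B, grey lines join stage means, and the dotted line separates the 2 index pairs. Both Car9 libraries at 14 d and at 21 d sit between 18.6 and 32.8 RPKM, and the 6 earlier ones at or below 0.256 RPKM.

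Hif1a (chromosome 12, 73901375 to 73947530 on GRCm38) encodes HIF-1α, the alpha subunit that is turned over in response to oxygen. Its level was 29.9 and 26.9 RPKM in subconfluent cells, 24.5 and 21.5 RPKM in confluent cells, 11.9 and 21.0 RPKM at 24 h, 13.98 and 14.1 RPKM at 14 d, and 14.6 and 14.4 RPKM at 21 d. The 4 late libraries lay between 13.98 and 14.6 RPKM and below all subconfluent and confluent libraries, whereas the 24 h replicates fell on either side of the late ones. In 21 d versus subconfluent cells the log2 change was -0.85 (SE 0.21, adjusted p = 0.012). It no longer passed when subconfluent replicate A, 21 d replicate A or 21 d replicate B was left out, with adjusted p up to 0.063, and over all single libraries left out the value was from -0.97 to -0.79. Between confluent cells and 14 d it was -0.50 (SE 0.21, adjusted p = 0.11), and without the 24 h libraries, which enter the estimate of the spread, -0.52 (adjusted p = 0.0016). In 24 h versus confluent cells it was -0.41 (adjusted p = 0.28), and with 24 h replicate B left out -0.79 (adjusted p = 0.0013). From 14 d to 21 d the change was -0.03 (SE 0.21, adjusted p = 0.98). Hif1a shares 330 exon bases with the antisense gene Gm15283, whose counts were 6.65% to 10.2% of those of Hif1a across stages. Hif1a also shares 148 exon bases with Gm49321, a protein-coding gene on the same strand that is not among the genes counted. Whether counting used the strand is not given in the sources used here.

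Epas1 (chromosome 17, 86753700 to 86833410) encodes HIF-2α, the alpha subunit best known from endothelium and from the control of erythropoietin. It was at 0.273 and 0.293 RPKM in subconfluent cells, 0.372 and 0.331 RPKM in confluent cells, 0.40 and 0.739 RPKM at 24 h, 0.361 and 0.401 RPKM at 14 d, and 0.324 and 0.30 RPKM at 21 d. Apart from 24 h replicate B, all libraries lay at or below 0.401 RPKM, far under the lowest Hif1a value of 11.9 RPKM. No comparison passed the test. The largest difference was in 24 h versus confluent cells, with a log2 change of 0.77 (SE 0.27, adjusted p = 0.15). That value rested on replicate B, the higher of the 24 h libraries. Without replicate A it was 1.11 (adjusted p = 0.014), and without replicate B it was 0.35. Between 24 h and 14 d it was -0.44 (adjusted p = 0.3), and -0.78 (adjusted p = 0.024) without 24 h replicate A.

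Of 13 further genes of the HIF machinery (Hif3a, Arnt, Arnt2, Egln2, Vhl, Hif1an, Cited2, Elob, Eloc, Cul2, Rbx1, Ep300 and Crebbp), 1 was called higher and 2 lower both in 14 d versus confluent cells and in 21 d versus subconfluent cells, and the median log2 changes were -0.13 and -0.06. The called share was 23.1% in both, where 13% and 27.6% of all genes were called, so that in the latter it was near that of all genes. With any fold change, 1 was higher and 4 were lower in the former and 2 were higher and 6 lower in the latter, where 23.5% of all genes passed as lower. In either direction 32.1% and 50.7% of all genes passed. Arnt, the beta subunit, had log2 changes of 0.06 and -0.05 (SE 0.20 for both). Vhl, the substrate receptor of the ligase, passed as higher in the latter comparison by 0.39 (SE 0.10, adjusted p = 0.016). Cited2, which competes with HIF for the coactivators Ep300 and Crebbp and is itself a HIF target, was at 54.5 and 45.3 RPKM in confluent cells, 27.4 and 26.8 RPKM at 24 h, and 19.5 and 21.9 RPKM at 14 d, and fell by 1.05 on the log2 scale (SE 0.12, adjusted p = 0.00074) between confluent cells and 14 d. It then rose from 14 d to 21 d by 0.59 (adjusted p = 0.02), to 33.0 and 32.5 RPKM. Eloc, elongin C of the VHL ligase, was at 32.0 and 27.4 RPKM in subconfluent cells and at 11.8 and 12.7 RPKM at 21 d, with a log2 change of -1.16 (SE 0.18, adjusted p = 0.0016).

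The other 2 genes called in this list, Hif3a and Arnt2, were weakly expressed, and are named here after their values were seen. Hif3a encodes another alpha subunit, some forms of which restrain HIF. It had 3 and 0 counts in subconfluent cells, 0 and 0 in confluent cells, 18 and 40 at 24 h, 330 and 130 at 14 d, and 212 and 534 at 21 d. Every 24 h library was thus above every earlier one, and every later library above those of 24 h. Its level remained below 1 RPKM, with 0.905 and 0.997 RPKM at 21 d. Taking 3 counts in each confluent library, it was at least 102-fold higher at 14 d. The ratio of 14 d to 24 h was 11.5 (95% interval 8.71 to 15.3, counting error only). Within the first index pair, Hif3a passed the test in 24 h versus confluent cells (adjusted p = 0.013). Arnt2, a relative of Arnt best known from neurons, was at 0.958 and 0.859 RPKM in subconfluent cells and at 0.0718 and 0.0461 RPKM at 21 d, a log2 change of -3.86 (SE 0.26, adjusted p = 2.7e-05). It also fell within each index pair, with log2 changes of -1.61 from subconfluent to confluent cells (adjusted p = 0.014), -1.15 from confluent cells to 24 h (adjusted p = 0.036) and -1.06 from 14 d to 21 d (adjusted p = 0.04).

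Both hydroxylases among the members rose. Egln1 (chromosome 8, 124908587 to 124949324) encodes PHD2, the main oxygen sensor of the pathway. It was at 15.8 and 16.5 RPKM in subconfluent cells, 15.8 and 14.8 RPKM in confluent cells, 15.1 and 13.4 RPKM at 24 h, 23.8 and 25.6 RPKM at 14 d, and 29.8 and 32.0 RPKM at 21 d. The 6 early libraries lay between 13.4 and 16.5 RPKM, and every late library was above them. The log2 change was 0.91 in 14 d versus 24 h (SE 0.11, adjusted p = 0.0027) and 1.05 in 21 d versus subconfluent cells (SE 0.11, adjusted p = 0.00021), close to the 2-fold limit, with values from 0.99 to 1.11 when single libraries were left out. From 14 d to 21 d it was 0.25 (adjusted p = 0.22), and 0.26 without the 24 h libraries (adjusted p = 0.036).

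Egln3 (chromosome 12, 54178981 to 54203860) encodes PHD3, a hydroxylase whose own gene is a well known HIF target. It was at 0.194 and 0.182 RPKM in subconfluent cells, 0.0996 and 0.220 RPKM in confluent cells, 0.208 and 0.162 RPKM at 24 h, 2.01 and 2.06 RPKM at 14 d, and 2.91 and 3.38 RPKM at 21 d. The early and late libraries did not overlap, and both 21 d libraries were above both 14 d libraries. The rise was 11.9-fold in 14 d versus 24 h, a log2 change of 3.57 (SE 0.35, adjusted p = 0.0011), and 18.0-fold in 21 d versus subconfluent cells, a log2 change of 4.17 (SE 0.36, adjusted p = 8.2e-05). The step from 14 d to 21 d, 0.56 (SE 0.31), had an adjusted p of 0.35, and of 0.022 with only these 2 stages fitted. Egln2, the hydroxylase PHD1, had log2 changes of -0.13 in 14 d versus confluent cells and -0.06 in 21 d versus subconfluent cells (SE 0.14 for both) and passed neither test.

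**Figure D2:**
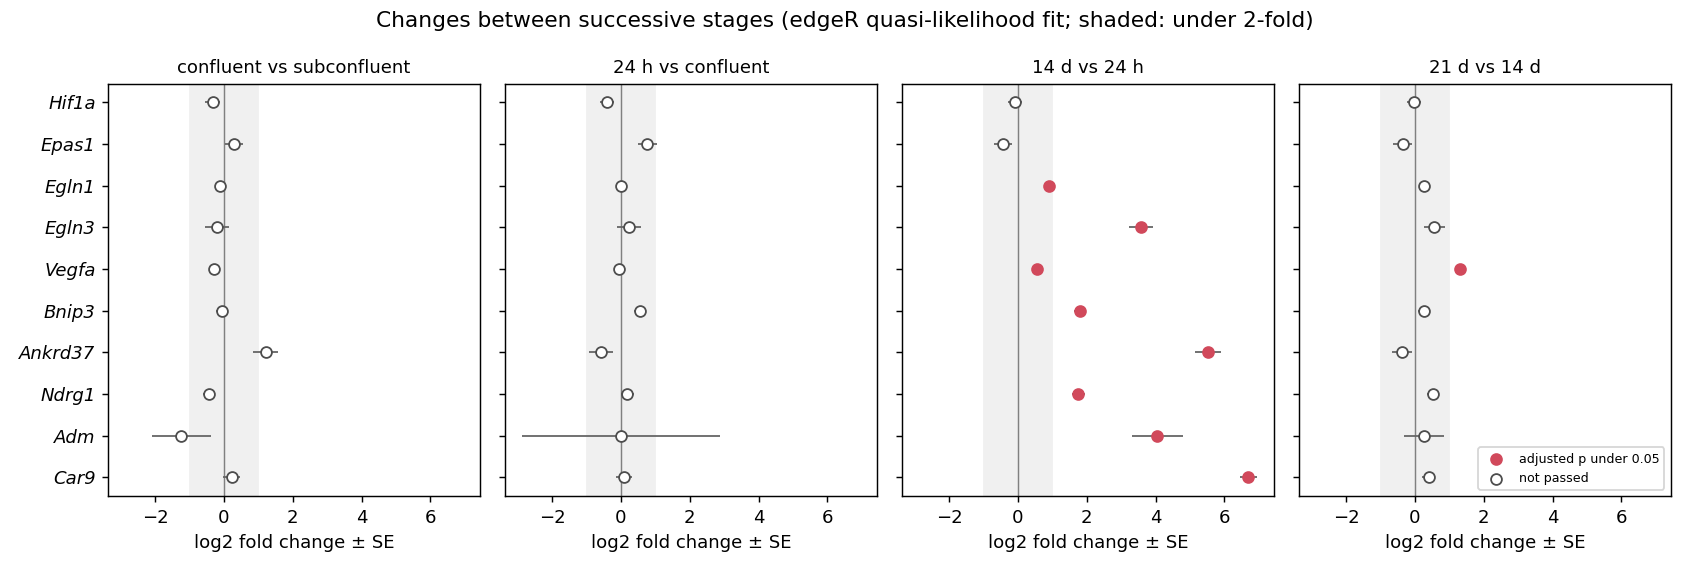
Log2 fold changes of the 10 genes between successive stages, with standard errors (SE), from the edgeR fit. Filled points had an adjusted p under 0.05 and open points did not, and the shaded band holds changes under 2-fold. In the first 2 panels 0 genes passed, in 14 d versus 24 h 8 did, and in 21 d versus 14 d Vegfa alone did.

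Of the targets, Car9 changed most. Car9 (chromosome 4, 43506966 to 43513729) encodes carbonic anhydrase IX, a membrane enzyme that helps cells keep their pH by hydrating carbon dioxide outside the cell, and it is widely used as a tissue marker of hypoxia. It was at 0.192 and 0.193 RPKM in subconfluent cells, 0.189 and 0.251 RPKM in confluent cells, 0.205 and 0.256 RPKM at 24 h, 18.6 and 25.2 RPKM at 14 d, and 28.1 and 32.8 RPKM at 21 d. In counts, the 6 early libraries held 13 to 59 reads and the 4 late ones 1812 to 5718. The gene was thus among the lowest of the members at first, and by 21 d its values overlapped those of Egln1. Its log2 change was 6.70 in 14 d versus 24 h (SE 0.24, adjusted p = 3.1e-05), a 104-fold rise, and 7.42 in 21 d versus subconfluent cells (SE 0.25, adjusted p = 2.7e-06). From 14 d to 21 d it was 0.40 (SE 0.18, adjusted p = 0.23). The antisense gene Gm12454 shares 214 exon bases with Car9 and had 30.4% of its number of counts in subconfluent cells, 17.8% in confluent cells, 47.6% at 24 h, 2.86% at 14 d and 3.32% at 21 d.

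Ankrd37 (chromosome 8, 45996902 to 46005707) encodes a small ankyrin repeat protein known mainly as a HIF-1 target. It was at 0.150 and 0.263 RPKM in subconfluent cells, 0.360 and 0.529 RPKM in confluent cells, 0.326 and 0.237 RPKM at 24 h, 10.7 and 13.3 RPKM at 14 d, and 8.18 and 11.2 RPKM at 21 d. Early and late libraries did not overlap, and those of 14 d and 21 d did. The log2 change was 5.52 in 14 d versus 24 h (SE 0.38, adjusted p = 0.00024), a 46.0-fold rise, and -0.38 in 21 d versus 14 d (SE 0.30, adjusted p = 0.54). In confluent versus subconfluent cells it was 1.21 (SE 0.37) with an adjusted p of 0.15, on 10 to 70 counts per library. On the opposite strand, Ankrd37 shares 349 exon bases with Lrp2bp, which had 10.3% to 28.1% of its number of counts at the first 3 stages, 1.16% at 14 d and 0.551% at 21 d, and 57 exon bases with Ufsp2. Ufsp2 had 4789 and 4013 counts at 24 h and 3868 and 1380 at 14 d, so it was counted far more often than Ankrd37 at 24 h (34 and 23 counts) and did not rise with it.

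Bnip3 (chromosome 7, 138890836 to 138909519) encodes a mitochondrial protein that promotes mitophagy and cell death. It was at 6.67 and 6.68 RPKM in subconfluent cells, 6.77 and 6.25 RPKM in confluent cells, 9.56 and 8.09 RPKM at 24 h, 25.2 and 31.8 RPKM at 14 d, and 32.6 and 38.8 RPKM at 21 d. The 24 h libraries were above the 4 earlier ones, and the late libraries above all of them. Its log2 change was 0.54 in 24 h versus confluent cells (SE 0.17, adjusted p = 0.12, and 0.042 by DESeq2), and 0.72 (adjusted p = 0.013) with 24 h replicate B left out. It was 1.81 in 14 d versus 24 h (SE 0.17, adjusted p = 0.00091) and 0.25 in 21 d versus 14 d (SE 0.17, adjusted p = 0.44). Bnip3 shares 504 exon bases with the antisense gene Gm45507, which is not among the genes counted. At 21 d Bnip3 had the highest mean of the 10 genes, 35.7 ± 4.41 RPKM (SD, n = 2). Next in order were Egln1 (30.9 ± 1.57 RPKM), Car9 (30.5 ± 3.34 RPKM) and Vegfa (26.6 ± 0.398 RPKM), and the values of Car9 overlapped those of both Bnip3 and Egln1, which did not overlap each other. Below them came Ndrg1 (21.2 ± 0.152 RPKM), Hif1a (14.5 ± 0.105 RPKM), Ankrd37 (9.70 ± 2.15 RPKM), Egln3 (3.15 ± 0.331 RPKM), Epas1 (0.312 ± 0.0169 RPKM) and Adm (0.236 ± 0.0829 RPKM), with no overlap between neighbours. In subconfluent cells the order began with Hif1a (28.4 ± 2.12 RPKM), Egln1 (16.2 ± 0.510 RPKM) and Vegfa (10.1 ± 0.616 RPKM), whose values did not overlap.

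Ndrg1 (chromosome 15, 66929318 to 66969640) encodes a stress-responsive protein linked to growth arrest and differentiation. It was at 5.72 and 5.39 RPKM in subconfluent cells, 4.44 and 3.96 RPKM in confluent cells, 3.42 and 5.62 RPKM at 24 h, 14.2 and 13.7 RPKM at 14 d, and 21.1 and 21.3 RPKM at 21 d. All late libraries were above all early ones, and both 21 d libraries above both of 14 d. The log2 change was 1.76 in 14 d versus 24 h (SE 0.18, adjusted p = 0.0014) and 2.05 in 21 d versus subconfluent cells (SE 0.19, adjusted p = 1e-04). From 14 d to 21 d it was 0.53 (SE 0.18, adjusted p = 0.12), and the adjusted p was 0.0016 without the 24 h libraries and 0.042 by DESeq2. In 24 h versus confluent cells it was 0.19 (adjusted p = 0.57), and 0.46 (adjusted p = 0.017) with 24 h replicate A left out. The antisense gene Gm17035 shares 419 exon bases with Ndrg1, and its counts were 19.4% to 21.9% of those of Ndrg1 at every stage.

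Adm (chromosome 7, 110627661 to 110629820) encodes adrenomedullin, a peptide that widens blood vessels. It was the least abundant of the 10 genes, with 4 and 2 counts in subconfluent cells, 0 and 3 in confluent cells, 1 and 2 at 24 h, 25 and 11 at 14 d, and 10 and 38 at 21 d. Its highest level was 0.294 RPKM, in 21 d replicate B, and its highest early level 0.0399 RPKM. Scaled for library size, the ratio of 14 d to 24 h was 17.3 (95% interval 5.48 to 88, counting error only), and that of 21 d to subconfluent cells was 10.1 (4.32 to 28.9). By edgeR the log2 changes were 4.05 (SE 0.74, adjusted p = 0.012) and 3.09 (SE 0.69, adjusted p = 0.0081). The former no longer passed without 14 d replicate A or B, with adjusted p up to 0.072, and the latter without subconfluent replicate A or 21 d replicate B, with adjusted p up to 0.088.

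Vegfa (chromosome 17, 46016993 to 46032369) encodes the main growth factor for blood vessels, which osteoblasts secrete. It was at 9.69 and 10.6 RPKM in subconfluent cells, 8.52 and 8.47 RPKM in confluent cells, 6.92 and 8.29 RPKM at 24 h, 9.62 and 10.8 RPKM at 14 d, and 26.3 and 26.9 RPKM at 21 d. At 14 d it was within the range of the early libraries or just above it, and only the 21 d libraries stood clear. Between 14 d and 21 d, which share an index pair, its log2 change was 1.30 (SE 0.10, adjusted p = 0.00058), a 2.47-fold rise. It was the single member of the 10 that was called in this comparison, where 3.97% of all genes were called and 1.52% of all genes were called higher. Leaving out single libraries gave values from 1.20 to 1.41. In 21 d versus subconfluent cells the log2 change was 1.51 (SE 0.10, adjusted p = 2.7e-05). The smaller rise in 14 d versus confluent cells, 0.48 (SE 0.10, adjusted p = 0.0096), no longer passed with library size alone as the scaling (0.25, adjusted p = 0.2), with limma-trend on RPKM (adjusted p = 0.11), and without confluent replicate A, confluent replicate B or 14 d replicate B (adjusted p up to 0.079). In 14 d versus 24 h it was 0.56 (adjusted p = 0.011), and this too no longer passed with library size alone (adjusted p = 0.06) and without 14 d replicate B (adjusted p = 0.095). Whether the step from 14 d to 21 d differed between Vegfa and the other targets was not tested.

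Taking the stages in order, 0 of the 10 genes passed the test in confluent versus subconfluent cells, where 1.43% of all genes were called, 1% higher, and 3.28% passed, and 0 passed in 24 h versus confluent cells, where 2.13% were called, 1.76% higher, and 5.15% passed. At an unadjusted p under 0.05, 3 passed in the former (Vegfa, Ankrd37 and Ndrg1) and 2 in the latter (Epas1 and Bnip3). DESeq2, at an adjusted p under 0.05 and any fold, passed 0 in the former and Bnip3 in the latter. Without the 24 h libraries, Hif1a (log2 fold change -0.33, adjusted p = 0.034) and Ndrg1 (-0.43, adjusted p = 0.009) passed as lower in confluent versus subconfluent cells. The share of all genes was not worked out at an unadjusted p, by DESeq2 at any fold or for this fit at any fold. The counts of members at these settings therefore have no background beside them and are a description. Between 24 h and 14 d, 6 of the 10 were called, each of them higher (Egln3, Bnip3, Ankrd37, Ndrg1, Adm and Car9), against 5.98% of all genes, 4.47% called higher, and 8 passed, against 17.3%. From 14 d to 21 d 1 was called and passed, where 9.72% of all genes passed. The 24 h to 14 d step is the one that also crosses the index pairs. Egln1, Egln3, Bnip3, Ankrd37, Ndrg1, Adm and Car9 had all 4 late libraries above all 6 early ones, as did 12% of the genes tested, while Hif1a, Epas1 and Vegfa overlapped. For 21.3% of genes the late libraries were all lower. Of the 7 osteoblast markers, 6 passed as higher in the 24 h to 14 d step and Runx2 did not (adjusted p = 0.078). In 21 d versus subconfluent cells 6 passed as higher and Col1a1 did not (-0.01, adjusted p = 0.98), and in 21 d versus 14 d 1 passed as higher and 3 as lower (Sp7, Alpl and Col1a1). The part of the library sets and of these markers in the differences of the 10 genes was not tested.

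Further genes known as HIF targets were examined as a list of 25 (Slc2a1, Pdk1, Pgk1, Ldha, Pfkfb3, Pfkfb4, Hk2, Slc16a3, Ddit4, Bnip3l, Higd1a, Fam162a, Mxi1, Ak4, Ero1a, P4ha1, P4ha2, Plod2, Lox, Kdm3a, Bhlhe40, Stc2, Angptl4, Car12 and Vldlr). At 14 d versus confluent cells 11 were called higher and 1 lower (12 of 25, or 48%, where 13% of all genes were called and 9.15% called higher), and the median log2 change was 0.96. In 21 d versus subconfluent cells 12 were called higher and 1 lower (52%, where 27.6% of all genes were called and 16.3% called higher), and the median was 0.86. With any fold change 15 passed as higher in the former and 16 in the latter, and 1 as lower in both. Of all genes 32.1% and 50.7% passed in either direction. In 14 d versus 24 h 9 were called higher and 0 lower, or 36%, where 5.98% of all genes were called. From 14 d to 21 d 0 were called, where 3.97% of all genes were. With any fold change 3 passed as higher (Slc2a1, Ero1a and P4ha2) and Pfkfb4 as lower, where 9.72% of all genes passed. In 24 h versus confluent cells, 2 of this list were called, both higher (Lox and Vldlr, or 8%, where 2.13% of all genes were called), and in confluent versus subconfluent cells Ddit4 was called higher and Lox lower (8%, where 1.43% of all genes were called). Whether these shares differ from those of the members was not tested.

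**Figure D3:**
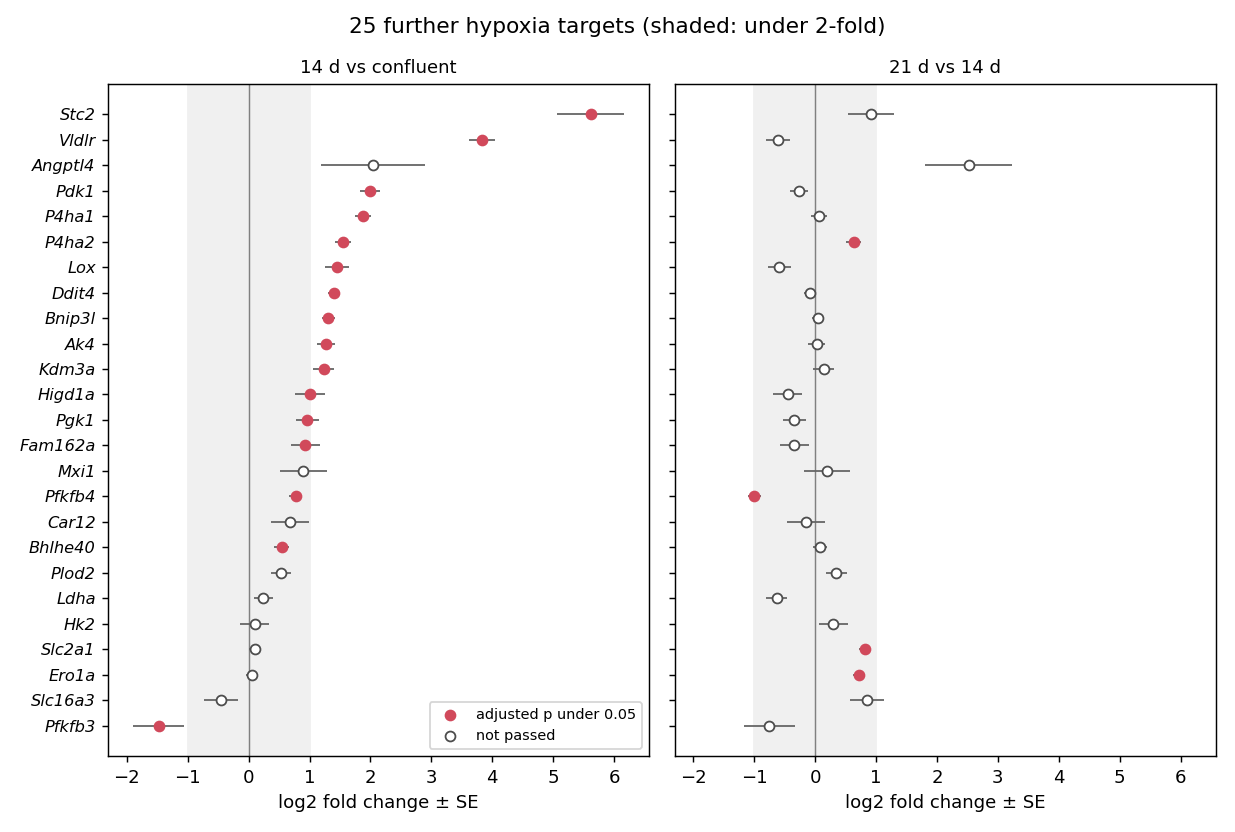
Log2 fold changes of 25 further hypoxia targets in 14 d versus confluent cells (left) and in 21 d versus 14 d (right), with standard errors, ordered by the left panel. Filled points had an adjusted p under 0.05, and the shaded band holds changes under 2-fold. On the left 15 filled points lie right of 0 and 1 left of it, and on the right 3 and 1.

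Vldlr, a lipoprotein receptor, changed most of the well-expressed genes of this list. It was at 0.983 and 1.09 RPKM in subconfluent cells, 1.60 and 1.88 RPKM in confluent cells, 3.42 and 5.66 RPKM at 24 h, 21.1 and 21.7 RPKM at 14 d, and 15.1 and 14.4 RPKM at 21 d. Its log2 change was 3.83 in 14 d versus confluent cells (SE 0.21, adjusted p = 4.6e-05), and it had already risen by 1.46 at 24 h (adjusted p = 0.009). Pdk1, which keeps pyruvate out of the mitochondrial citrate cycle, was at 2.45 and 2.61 RPKM in confluent cells and 7.88 and 9.46 RPKM at 14 d, a log2 change of 1.99 (SE 0.16, adjusted p = 2e-04). P4ha1, a subunit of the collagen prolyl hydroxylase, was at 32.3 and 29.7 RPKM in confluent cells and 89.7 and 107 RPKM at 14 d, a log2 change of 1.88 (SE 0.13, adjusted p = 0.00011). P4ha1, P4ha2, Plod2 and Lox also serve collagen synthesis in osteoblasts in their own right. Ddit4, an inhibitor of mTOR signalling, rose at an earlier stage. It was at 18.9 and 19.0 RPKM in subconfluent cells, 55.8 and 58.4 RPKM in confluent cells, 87.4 and 88.7 RPKM at 24 h, and 124 to 134 RPKM in the 4 late libraries, with a log2 change of 1.57 in confluent versus subconfluent cells (SE 0.09, adjusted p = 0.00053).

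Pfkfb3, whose product stimulates glycolysis, was the gene called lower in both comparisons. It was at 2.18 and 1.98 RPKM in subconfluent cells and 0.346 and 0.336 RPKM at 21 d, a log2 change of -2.49 (SE 0.44, adjusted p = 0.0025). Slc2a1, the glucose transporter GLUT1, had a log2 change of 0.10 in 14 d versus confluent cells (adjusted p = 0.49) and passed in 21 d versus 14 d with 0.82 (SE 0.10, adjusted p = 0.0032). Ldha, lactate dehydrogenase A, passed in neither, with 0.24 (adjusted p = 0.3) and -0.63 (adjusted p = 0.056). Among the other genes of glycolysis in the list, Pgk1 (0.96, adjusted p = 0.0075) and Pfkfb4 (0.77, adjusted p = 0.0021) passed as higher in 14 d versus confluent cells, and Hk2 did not pass (0.10, adjusted p = 0.8). All of these but Pfkfb3 are named after their values were seen. Stc2, at the top of the plot of further targets and also named after its values were seen, held 2 counts over both confluent libraries and 88 over both of 14 d, a ratio of 58.6 (95% interval 15.7 to 491, counting error only).

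On the side of the ligands and receptors for Vegfa and Adm, 11 of 14 genes could be tested. Kdr, the main signalling receptor for Vegfa, had at most 1 count per library, Flt4 and Calcrl, the latter the core of the adrenomedullin receptor, at most 7 each. In 14 d versus confluent cells 4 of 11 (36.4%) were called, all higher, where 13% of all genes were called and 9.15% called higher. In 21 d versus subconfluent cells 4 were called higher and 1 lower (45.5%), where 27.6% of all genes were called and 16.3% called higher. The median log2 changes were 0.74 and 0.95. Ramp3 was the gene called lower in 21 d versus subconfluent cells (-1.51, SE 0.47, adjusted p = 0.031), on 3 to 51 counts per library. Ramp2 passed as higher by less than 2-fold, with 0.41 in 14 d versus confluent cells and 0.53 in 21 d versus subconfluent cells. Both are named after their values were seen, and like Ramp1 they pair with Calcrl. Ramp1 changed most of the genes tested. It was at 0.438 and 0.289 RPKM in subconfluent cells, 3.98 and 5.88 RPKM in confluent cells, 15.7 and 11.7 RPKM at 24 h, 40.2 and 43.9 RPKM at 14 d, and 14.5 and 14.4 RPKM at 21 d. It rose within the first index pair, by 3.68 in confluent versus subconfluent cells (SE 0.29, adjusted p = 0.0016), and fell from 14 d to 21 d by 1.62 (adjusted p = 0.0078), where Vegfa rose. Flt1, the other tyrosine kinase receptor for Vegfa, was at 4.61 and 4.11 RPKM in confluent cells and 8.29 and 7.90 RPKM at 14 d, a log2 change of 1.11 (SE 0.23, adjusted p = 0.011). Ackr3, which takes up adrenomedullin and the chemokine Cxcl12, rose by 1.31 in the same comparison (SE 0.23, adjusted p = 0.0046). Nrp2, a co-receptor of VEGF ligands, had a log2 change of 1.02 in 21 d versus subconfluent cells (SE 0.22, adjusted p = 0.0067) and of 1.20 in confluent versus subconfluent cells (adjusted p = 0.035). Vegfb was the ligand besides Vegfa that passed in 21 d versus 14 d, with 0.91 (SE 0.16, adjusted p = 0.011).

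The genes with profiles most like each member were found by Pearson's correlation of log2 CPM over the 10 libraries, among about 15739 genes with a mean of at least 1 RPKM. These values are a description. The points share the 5 stages and the 2 index pairs, and any gene with a step between 24 h and 14 d resembles any other. Mmp13, a collagenase of late osteoblasts and hypertrophic cartilage, was most like Car9 (r = 0.9978). The aldolase gene Aldoa (r = 0.9941) and its retrogene Aldoart1 (r = 0.9977), which can share reads, were most like Egln1. Mgarp, a mitochondrial protein, and the keratin Krt6a were most like Egln3 (r = 0.9938 and 0.9923), and Krt6a was also most like Bnip3 (r = 0.9914). Col4a1, a basement membrane collagen, was most like Ndrg1 (r = 0.9942), followed by Gm17035, the antisense gene that overlaps it. For Vegfa the nearest gene was Cdsn (r = 0.9867), for Ankrd37 Rgs11 (r = 0.989), for Hif1a Hccs (r = 0.9964) and for Epas1 Celf5 (r = 0.9851). Next to Gm17035, Adm was closest to Apln (r = 0.9764), which encodes apelin, another peptide that acts on vessels.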

How the data were processed

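RNA from MC3T3-E1 cells was sequenced as 51-base paired-end reads in 10 samples of 5 stages, grouped by their labels. Per the labels' processing notes, FastQC, TopHat2 2.0.9, R 3.0.1 and the mm10 genome were used. The counting tool and its use of strand are not given in the sources used here. The authors deposited read counts per gene without normalization, and RPKM values, which scale these counts for the length of each gene and for depth. The counts of 14 d replicate A and 21 d replicate B are the authors' merged columns of 2 lanes. They are not exact sums of the lanes. In 14 d replicate A 7 of the 10 members differed from the sum, by at most 2.08%. In 21 d replicate B 8 differed, by at most 21.1%. Depth is given below with the levels, and intervals cover counting error only.

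Identifiers were matched to GENCODE vM21 (GRCm38). Counts were filtered with filterByExpr, scaled by TMM and fitted over 5 groups with the quasi-likelihood test of edgeR 4.0.16 in R 4.3.3, in 6 comparisons and an F test, each adjusted by Benjamini-Hochberg. The 24 h replicates entered the shared estimate of the spread. The analysis was tested on simulated data. The members and lists were chosen with earlier results of these data known, and 1 gene of the list of further targets is not reported here. From each list the 3 called genes with the largest change and a mean of at least 1 RPKM were named in 14 d against confluent and 21 d against subconfluent cells, and for likeness the 2 nearest genes. Marker lists for adipocytes and red blood cells summed to 0.126 to 1.13 and 0.0276 to 0.34 RPKM per library. Alternatives were other scalings (DESeq2 size factors, library size alone), no filter, a fit of just the groups compared, a fit lacking the 24 h samples, a replicate block, DESeq2 1.42.0, limma-trend (limma 3.58.1) on log2(RPKM + 1) and log2(RPKM + 0.1), other fold limits, CPM in place of RPKM for ratios, lanes summed instead of merged, and each replicate left out.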

Additional observations from a re-analysis of the deposited data

How the results depend on the processing

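The direction of each passed result among the 10 genes was kept under the alternatives run, and 668 of the values for single genes kept their side of the threshold, while 12 lost it and 18 gained it. Fits with single libraries left out entered this count only through the lowest and highest log2 change of each gene and comparison. The 668 include results that had not passed in the main fit and so could not lose a pass. In that fit 0 of the 10 genes passed in each of the first 2 steps. In 14 d versus 24 h 8 passed, in 21 d versus 14 d 1, in 14 d versus confluent cells 8, and in 21 d versus subconfluent cells 9. The losses concerned Hif1a, Egln1, Vegfa, Ndrg1 and Adm, none of them Car9, Ankrd37, Bnip3 or Egln3. With only 14 d and 24 h fitted, Egln1 (adjusted p = 0.11), Vegfa (0.18), Ndrg1 (0.069) and Adm (0.082) no longer passed in that comparison. The number of members called in 24 h versus confluent cells was 0 to 1 when single replicates were left out, the 1 being Epas1 without 24 h replicate A. In 21 d versus 14 d 0 members were called at more than 4-fold. With CPM in place of RPKM, 5 of the ratios worked out for the members moved and 5 stayed the same. The sizes of these moves are not given here. With any fold change, the HIF machinery list had 2 of 13 genes in 21 d versus 14 d, 5 in 14 d versus confluent cells and 8 in 21 d versus subconfluent cells. Of all genes 9.72%, 32.1% and 50.7% passed in these. The further targets had 5 of 25 in 24 h versus confluent cells, 14 in 14 d versus 24 h and 4 in 21 d versus 14 d. There 5.15%, 17.3% and 9.72% of all genes passed. The ligands and receptors had 2, 2 and 10 of 11 in 24 h versus confluent cells, 21 d versus 14 d and 21 d versus subconfluent cells. For all genes the shares were 5.15%, 9.72% and 50.7%. With the replicate block, 8 members were called in 21 d versus subconfluent cells and 6 in 14 d versus confluent cells, the numbers without it, and 8 passed the F test in place of 9. By DESeq2 10 passed it. Limma-trend on log2(RPKM + 1) called 6 and 5 members in these 2 comparisons, and on log2(RPKM + 0.1) 7 and 6. Some fits with single libraries left out also called fewer in 21 d versus subconfluent cells. Over all genes 2502 were called in 14 d versus confluent cells with the replicate block and 2705 without it. The labels do not say that equal letters mark pairs, and the correlation of A minus B between stages was -0.184 to 0.1. Library size alone as the scaling moved the median change of all genes (log2) from 0.03 to -0.20 in 14 d versus confluent cells and from 0.04 to -0.12 in 21 d versus subconfluent cells. Depth limits Adm and Hif3a, whose early counts were at or near 0.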
